A study of Mus musculus with 8 samples.

Results

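The toll-like receptors of mouse brown adipose tissue (BAT) were taken by name as 10 genes, *Tlr1* to *Tlr9* and *Tlr13*, of the 44674 genes in the table. They were divided by the place where the receptor meets its ligand into 5 surface receptors (*Tlr1*, *Tlr2*, *Tlr4*, *Tlr5* and *Tlr6*) and 5 endosomal receptors (*Tlr3*, *Tlr7*, *Tlr8*, *Tlr9* and *Tlr13*). BAT of 4 control mice and 4 Ox1RΔSERT mice, all male and fed a high-fat diet (HFD) from 4 to 18 weeks of age, was studied by mRNA sequencing at the end of a hyperinsulinemic-euglycemic clamp, during which blood glucose is held constant by a variable glucose infusion while insulin is infused at a fixed rate. Ox1RΔSERT mice (labelled Sert-Ox1R) carry Ox1R fl/fl and a Sert-Cre transgene, so that the orexin receptor Ox1R is removed in cells that express the serotonin transporter. Control mice (labelled CTRL) carry Ox1R fl/fl without the Cre transgene, so the loxP sites and the diet are shared by both groups, while the transgene and the deletion differ together. The deletion was aimed at serotonergic neurons and not at BAT, and the tissue was sequenced whole.

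Toll-like receptors are membrane proteins of innate immunity that bind molecules of microbes or of damaged cells. Those of the cell surface recognise lipids and proteins of microbes, and those of endosomes recognise nucleic acids, after the chaperone UNC93B1 has carried them there. All but TLR3 signal through the adaptor MYD88, and TLR3 and TLR4 also use TRIF, the product of *Ticam1*. The signal passes through IRAK kinases and TRAF6 to NF-κB and IRF transcription factors, which switch on cytokine genes. In adipose tissue the receptors are known mainly from macrophages and other immune cells, and TLR4 also from adipocytes.

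All 10 genes are protein coding, and the positions follow the GENCODE annotation of GRCm38. *Tlr1* (chr5:64924679-64933563) and *Tlr6* (chr5:64952031-64960097) lie near each other on the minus strand. *Tlr7* (chrX:167304929-167330558) and *Tlr8* (chrX:167242696-167264329) are likewise neighbours on the minus strand, and *Tlr13* (chrX:106143204-106160493) lies on the plus strand of the same chromosome. *Tlr2* (chr3:83836272-83841767), *Tlr3* (chr8:45395665-45411080), *Tlr4* (chr4:66827584-66930284), *Tlr5* (chr1:182954788-182976044) and *Tlr9* (chr9:106222598-106226883) are on chromosomes of their own. Of the 31-base words in the transcripts, 20.0% of those of *Tlr1* and 16.6% of those of *Tlr6* also occurred in another gene, mostly in each other, where 607 words were shared. Reads from such stretches can be divided between the genes in different ways, so the separate values of *Tlr1* and *Tlr6* are uncertain. *Tlr3* shared 381 exon bases with *Gm45542* on the opposite strand and 6.10% of its words, *Tlr4* shared 0.667% and the other 6 receptors shared 0%.

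Promoter windows of 300 bases, from 250 bases before to 50 bases after a RefSeq start site (GRCm38.p6), were present for 8 of the 10 receptors, all but *Tlr4* and *Tlr7*. They were searched on both strands for the PU.1 core GAGGAAGT, the C/EBP motif TTGCNNAA, the NF-κB motif GGANTTTCC, the IRF motif GAAANNGAA and the AP-1 motif TGANTCA, where N is any base. Of 32851 promoter windows, these were found in 3.20%, 10.8%, 1.25%, 8.56% and 7.81%, in the same order. In the window nearest the annotated 5′ end of each receptor they were found in 2, 3, 1, 1 and 1 of the 8. The start site of this window was 700 bases from that end in *Tlr3*, 159 in *Tlr2* and no more than 71 in the others. The window of *Tlr3*, with the only NF-κB match, therefore does not hold its annotated 5′ end. The windows of *Tlr13*, *Tlr8* and *Tlr6* are shown because DESeq2 called these 3 genes, and that of *Tlr3* because its values differed least between the groups. Matches are in capitals, did not overlap each other in these 4 windows and are a description of letters only.
Tlr13 (chrX:106143025-106143324, plus strand): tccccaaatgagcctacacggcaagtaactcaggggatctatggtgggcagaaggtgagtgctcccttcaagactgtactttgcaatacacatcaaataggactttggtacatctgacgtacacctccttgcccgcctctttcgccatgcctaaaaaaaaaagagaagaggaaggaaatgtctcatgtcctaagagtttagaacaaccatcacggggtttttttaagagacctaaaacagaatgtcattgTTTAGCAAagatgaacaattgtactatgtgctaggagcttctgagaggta
Tlr8 (chrX:167264280-167264579, minus strand): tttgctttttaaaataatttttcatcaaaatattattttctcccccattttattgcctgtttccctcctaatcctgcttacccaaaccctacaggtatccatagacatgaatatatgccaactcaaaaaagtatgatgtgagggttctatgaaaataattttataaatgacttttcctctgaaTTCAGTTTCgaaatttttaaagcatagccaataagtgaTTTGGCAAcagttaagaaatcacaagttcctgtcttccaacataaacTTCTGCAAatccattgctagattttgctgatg
Tlr6 (chr5:64959999-64960298, minus strand): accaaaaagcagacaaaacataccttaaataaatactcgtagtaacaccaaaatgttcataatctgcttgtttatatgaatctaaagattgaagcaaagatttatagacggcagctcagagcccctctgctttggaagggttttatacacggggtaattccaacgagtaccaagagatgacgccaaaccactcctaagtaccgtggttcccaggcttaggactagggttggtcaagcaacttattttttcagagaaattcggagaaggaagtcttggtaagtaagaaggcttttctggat
Tlr3 (chr8:45410331-45410630, minus strand): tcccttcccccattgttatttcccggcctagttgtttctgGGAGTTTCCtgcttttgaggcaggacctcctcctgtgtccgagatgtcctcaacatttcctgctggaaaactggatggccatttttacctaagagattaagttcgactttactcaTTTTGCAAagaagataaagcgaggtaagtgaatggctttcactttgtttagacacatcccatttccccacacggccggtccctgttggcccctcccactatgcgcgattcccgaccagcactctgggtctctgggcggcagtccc
Counted from the start site at 0, the C/EBP match of *Tlr13* began at 0, those of *Tlr8* at -29 and 18, and that of *Tlr3* at -95. The IRF match of *Tlr8* began at -67 and the NF-κB match of *Tlr3* at -210. The window of *Tlr6* nearest its annotated 5′ end held no match to these 5 motifs, and a second window of this gene (chr5:64959117-64959416), not shown, held 1 C/EBP match and 2 IRF matches that overlap each other.

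Total counts were between 35852667 and 50063257 per mouse, of which mitochondrially encoded genes took 33.6% to 46.8%. Together the 10 receptors had 812 to 1097 counts in a control mouse and 1130 to 4124 in an Ox1RΔSERT mouse. On the first principal component of all tested genes, with 53.6% of the variance, Ox1RΔSERT mice 11601 and 11708 were at 59.3 and 77.0 and the other 6 mice were between -44.3 and 7.13. These 2 mice were also left out, and values without them are given with the results. No batch is given in the labels. The labels name 8 separate mice.

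Transcripts of all 10 receptors were detected in every mouse, at low levels. Levels of different genes were compared as TPM, a unit that takes transcript length into account. *Tlr4*, the receptor for lipopolysaccharide, had the highest level in 7 of the 8 mice, with 1.92 ± 0.221 TPM (SD, n = 4) in control mice and 3.69 ± 2.07 TPM in Ox1RΔSERT mice. In control mice the TPM of *Tlr4* was apart from that of every other receptor. *Tlr7*, *Tlr3*, *Tlr8*, *Tlr1*, *Tlr2*, *Tlr5* and *Tlr13* followed in this order, with means from 0.742 to 0.403 TPM, and the ranges of neighbours in the order overlapped. *Tlr6* and *Tlr9* were lowest, at 0.0703 and 0.0508 TPM in control mice, apart from *Tlr13* and not from each other. In Ox1RΔSERT mice the order was *Tlr4*, *Tlr8*, *Tlr13*, *Tlr7*, *Tlr2*, *Tlr1*, *Tlr5*, *Tlr3*, *Tlr6* and *Tlr9*, and the only neighbours whose TPM did not overlap were *Tlr6* and *Tlr9*. *Tlr8* was the second receptor there at 2.97 ± 2.42 TPM and *Tlr13* the next at 2.40 ± 2.15 TPM. In Ox1RΔSERT mouse 11708 *Tlr8* was the highest, with 5.39 TPM against 4.52 TPM for *Tlr4*.

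To compare the groups, the quasi-likelihood test of edgeR was run on all 14489 genes that passed a filter on low counts, with Benjamini-Hochberg adjustment. All 10 receptors were tested and had a positive log2 fold change (Ox1RΔSERT minus control), and 0 of them passed an adjusted p under 0.05. Over all genes 0%, that is 0 genes, passed this threshold, whereas DESeq2 called 265 and edgeR gave 2201 at an unadjusted p under 0.05. By this unadjusted measure 6 of the 10 receptors (*Tlr1*, *Tlr2*, *Tlr6*, *Tlr7*, *Tlr8* and *Tlr13*) were higher in Ox1RΔSERT mice, against 10.2% of all tested genes that were higher. *Tlr6* passed the filter on low counts through the Ox1RΔSERT mice, and without it the count is 5 of 9 and the median log2 fold change 1.14. *Tlr9* reached the minimum of the filter in 1 control mouse and 3 Ox1RΔSERT mice, so it too passed mainly through that group. It stays in the counts out of 10 and out of 9 and in the medians, and neither tool called it. DESeq2, on the same rounded counts, called 3 receptors higher (*Tlr6*, *Tlr8* and *Tlr13*), against 1.54% of all genes with an adjusted p there, or 2 of 9 without *Tlr6*. DESeq2 called 0 receptors when control mouse 11560 or 11563 or Ox1RΔSERT mouse 11601 or 11708 was left out, *Tlr6* alone without control mouse 10684, and *Tlr8* and *Tlr13* without control mouse 11253. It called 5, with *Tlr1* and *Tlr7* in addition, when Ox1RΔSERT mouse 11243 or 11613 was left out. The share called over all genes with an adjusted p moved as well. It was 1516 of 16057 without 11243, 936 of 15546 without 11613, 373 of 14105 without 10684 and 247 of 15522 without 11253. Where 0 receptors were called it was 17 of 16794 (without 11560), 49 of 16318 (11563), 17 of 19720 (11601) and 19 of 14518 (11708). Medians of the log2 fold change were 1.18 over the 10 receptors, 1.14 over the surface receptors and 1.22 over the endosomal receptors, beside 0.00211 over all tested genes. With a filter of at least 10 counts in every mouse, which removed *Tlr6* and *Tlr9*, these medians were 1.19, 0.97 and 1.47, beside 0.00260.

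In each of the 10 receptors the highest 2 values were those of Ox1RΔSERT mice 11601 and 11708, which held for 20.1% of all tested genes. Without these 2 mice, edgeR's log2 fold change was positive in 7 of the 10 receptors, with a median of 0.17. Then 0 receptors had an unadjusted p under 0.05, against 1.66% of all genes tested in that comparison that were higher and 1.2% that were lower. With shares this low, 0 of 10 is no result about the receptors. The adjusted p was then 0.996 for each of the 10 in edgeR, and DESeq2 called 0 of them. *Tlr6* kept the largest difference of the 10 in this comparison, 1.03 on the log2 scale. Since these mice had the highest values of all 10 receptors, leaving them out had to lower each difference.

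**Figure D1:**
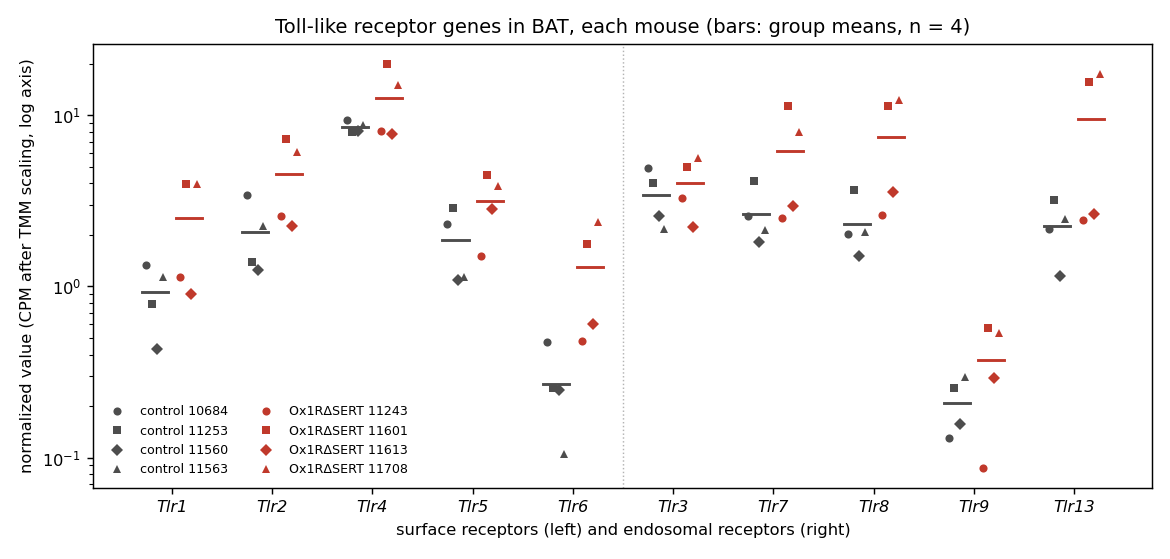
Normalized value (CPM after TMM scaling, log axis) of each receptor in each mouse, with control mice in grey, Ox1RΔSERT mice in red, a symbol for each mouse and a bar at each group mean (n = 4). The red square and triangle, mice 11601 and 11708, are the highest points of all 10 receptors, and only in *Tlr6* do the groups not overlap.

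Among the surface receptors, TLR2 binds bacterial lipopeptides as a pair with TLR1 or TLR6. Normalized values, which are CPM values (counts scaled by library size) after TMM scaling, are given in the order of control mice 10684, 11253, 11560 and 11563 and then Ox1RΔSERT mice 11243, 11601, 11613 and 11708. Those of *Tlr2* were 3.40, 1.40, 1.24 and 2.25 in control mice and 2.58, 7.30, 2.27 and 6.13 in Ox1RΔSERT mice. Mice 11601 and 11708 were above every control mouse, while 11243 and 11613 lay within the control range. The log2 fold change of *Tlr2* was 1.14 ± 0.47 (SE) (adjusted p = 0.321, edgeR).

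Its partner *Tlr6* had the largest log2 fold change of the 10 receptors and was the only one without overlap between the groups, which was the case for 2.69% of all tested genes in this direction. Its normalized values were 0.471, 0.254, 0.248 and 0.105 in control mice and 0.480, 1.78, 0.606 and 2.37 in Ox1RΔSERT mice. The lowest Ox1RΔSERT mouse, 11243, was just above the highest control mouse, 10684, with 22 against 18 counts in all. Counts were 5 to 18 in control mice and 22 to 115 in Ox1RΔSERT mice, and *Tlr6* reached the minimum of the filter in 1 control mouse and in all 4 Ox1RΔSERT mice. The log2 fold change was 2.28 ± 0.63 (SE) and the adjusted p 0.316 in edgeR and 0.0357 in DESeq2. Because the filter was passed through the group in which the gene is high, the lack of overlap and the DESeq2 call are given as a description only.

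The other partner is *Tlr1*, whose normalized values were 1.33, 0.793, 0.429 and 1.13 in control mice and 1.14, 3.98, 0.898 and 3.99 in Ox1RΔSERT mice. Only mice 11601 and 11708 were above the control range. Its log2 fold change was 1.44 ± 0.57 (SE) (adjusted p = 0.316, edgeR). Because of the words they share, *Tlr1* and *Tlr6* were also added: the sum was 1.80, 1.05, 0.677 and 1.24 in control mice and 1.62, 5.76, 1.50 and 6.36 in Ox1RΔSERT mice, and in the sum the groups overlapped. The effective length that the counts and TPM imply differed between mice by up to 2.64-fold in *Tlr1* and 3.20-fold in *Tlr6*, against a median of 1.11-fold over all tested genes, and the TPM of these 2 genes is uncertain for this reason too. It differed by up to 1.58-fold in *Tlr7* and 1.44-fold in *Tlr8*, and by at most 1.18-fold in the other 6 receptors.

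*Tlr4* varied least among control mice, with normalized values of 9.36, 8.02, 8.11 and 8.83, a 1.17-fold range. In Ox1RΔSERT mice the values were 8.06, 19.9, 7.79 and 15.0. Mice 11243 and 11613 were at or just below the low end of the control values and 11601 and 11708 were above them. *Tlr4* differed by 0.56 ± 0.29 (SE) on the log2 scale (adjusted p = 0.375, edgeR).

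*Tlr5*, the receptor for flagellin, differed by 0.78 ± 0.43 (SE) on the log2 scale (adjusted p = 0.390, edgeR). Its normalized values were 2.33, 2.89, 1.08 and 1.13 in control mice and 1.51, 4.48, 2.83 and 3.89 in Ox1RΔSERT mice. Control mice 10684 and 11253 were more than 2-fold above the other control mice in normalized value, and Ox1RΔSERT mouse 11613, at 2.83, was just under control mouse 11253.

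**Figure D2:**
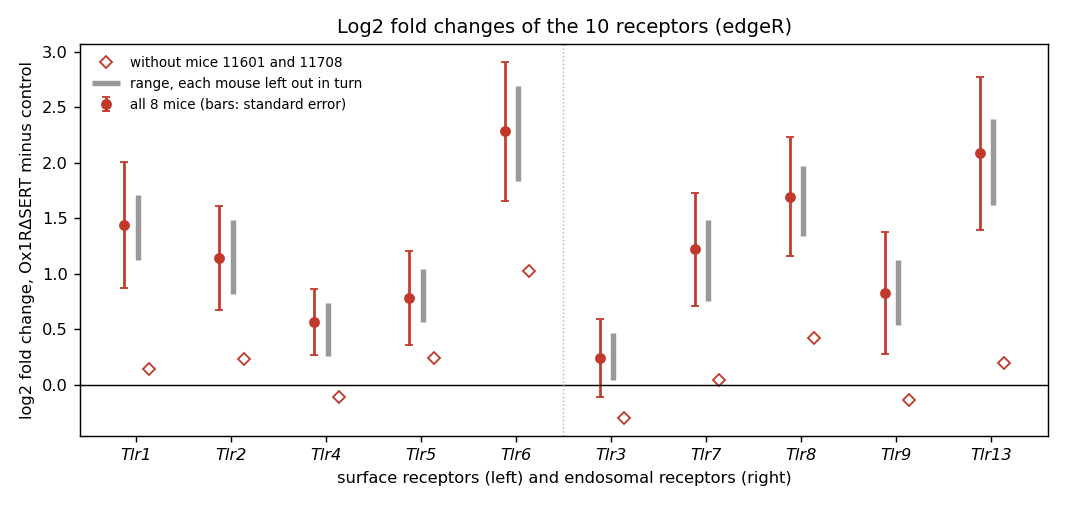
Log2 fold change (Ox1RΔSERT minus control, edgeR) of the 10 receptors with all 8 mice (filled points, bars are the standard error), the range when each mouse was left out in turn (grey bars) and the value without mice 11601 and 11708 (open diamonds). With all mice the 10 values were between 0.24 and 2.28, and without those 2 mice between -0.30 and 1.03.

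Among the endosomal receptors, TLR13 recognises a sequence of bacterial ribosomal RNA and is found in mice and not in humans. Normalized values of *Tlr13* were 2.17, 3.20, 1.15 and 2.48 in control mice and 2.45, 15.6, 2.65 and 17.4 in Ox1RΔSERT mice. The values of 11601 and 11708 were far above all others, and those of 11243 and 11613 were within the control range, so that the 7.13-fold range among Ox1RΔSERT mice was the widest of the 10 receptors. For *Tlr13* the log2 fold change was 2.09 ± 0.69 (SE) and the adjusted p 0.316 in edgeR and 0.0406 in DESeq2. The exact permutation test of its normalized values gave p = 0.171 (two-sided).

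TLR7 senses single-stranded RNA, and TLR8 is its close relative and chromosomal neighbour. Normalized values of *Tlr8* were 2.01, 3.65, 1.51 and 2.08 in control mice and 2.60, 11.4, 3.55 and 12.3 in Ox1RΔSERT mice. Mouse 11613 was just below the highest control mouse, 11253. The log2 fold change of *Tlr8* was 1.69 ± 0.54 (SE) and the adjusted p 0.316 in edgeR and 0.0428 in DESeq2.

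Normalized values of *Tlr7* were 2.59, 4.15, 1.81 and 2.12 in control mice and 2.51, 11.3, 2.94 and 7.96 in Ox1RΔSERT mice. Its highest value was in mouse 11601, while that of *Tlr8* was in mouse 11708. The log2 fold change of *Tlr7* was 1.22 ± 0.51 (SE) (adjusted p = 0.323, edgeR).

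*Tlr3*, which encodes the receptor for double-stranded RNA, differed least between the groups. Its normalized values were 4.89, 3.99, 2.60 and 2.16 in control mice and 3.28, 5.01, 2.22 and 5.59 in Ox1RΔSERT mice. Control mouse 10684 was close to Ox1RΔSERT mouse 11601, and the groups overlapped over most of their range. The difference was 0.24 ± 0.35 (SE) on the log2 scale (adjusted p = 0.753, edgeR).

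*Tlr9*, which encodes the receptor for unmethylated CpG DNA, was near the limit of detection, with 5 to 14 counts in control mice and 4 to 29 in Ox1RΔSERT mice. It reached the minimum of the filter in 1 control mouse and 3 Ox1RΔSERT mice. Its normalized values were 0.131, 0.254, 0.158 and 0.294 in control mice and 0.0873, 0.572, 0.292 and 0.535 in Ox1RΔSERT mice, where a floor of 3 counts corresponded to 0.0592 to 0.0951. The lowest value of all was that of Ox1RΔSERT mouse 11243. Between the groups *Tlr9* differed by 0.83 ± 0.55 (SE) on the log2 scale (adjusted p = 0.475, edgeR).

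The remaining mouse receptors of the family, *Tlr11* and *Tlr12*, did not pass the filter. *Tlr11* had 1, 0, 5 and 5 counts in control mice and 0, 13, 3 and 7 in Ox1RΔSERT mice, and *Tlr12* had 0 counts in every control mouse and 1, 2, 0 and 4 in Ox1RΔSERT mice. Both genes were at or near the floor, and no fold change is given for them.

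Added over the 10 receptors, TPM was 7.84, 6.65, 4.68 and 5.80 in control mice and 5.67, 28.3, 8.84 and 25.6 in Ox1RΔSERT mice. In TPM the sum of mouse 11243 was within the control range, that of 11613 was above it, and those of 11601 and 11708 were the highest. Summed as normalized values instead, mouse 11613 was at 26.0, within the control range of 18.3 to 28.7. Mice 11601 and 11708, at 81.3 and 75.2, were above that range. Surface receptors made 3.68 ± 0.731 TPM (SD, n = 4) in control mice and 8.60 ± 5.01 TPM in Ox1RΔSERT mice, and endosomal receptors made 2.56 ± 0.814 and 8.49 ± 6.56 TPM. The ratio of surface to endosomal TPM was 1.47, 0.996, 1.75 and 1.84 in control mice and 1.54, 1.00, 1.59 and 0.801 in Ox1RΔSERT mice. Mice 11601 and 11708 had lower ratios than the other Ox1RΔSERT mice, and control mouse 11253 was as low as 11601, so the groups overlapped.

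The make-up of the summed TPM differed between receptors. The share of *Tlr4* was 27.4%, 24.4%, 41.2% and 34.4% in control mice and 30.6%, 22.0%, 26.0% and 17.7% in Ox1RΔSERT mice. That of *Tlr13* was 5.28%, 7.82%, 4.43% and 8.11% in control mice and 7.58%, 14.4%, 7.26% and 17.3% in Ox1RΔSERT mice, with 11601 and 11708 above all others. The share of *Tlr8* was 8.98% to 13.2% in control mice and 10.7% to 21.1% in Ox1RΔSERT mice. Only the share of *Tlr6* did not overlap, with 0.42% to 2.21% in control mice and 3.05% to 5.65% in Ox1RΔSERT mice, and it rests on the uncertain TPM of that gene. Its implied effective length, relative to its median over the mice, was lowest in Ox1RΔSERT mice 11613 (0.437) and 11243 (0.568). A shorter length gives a higher TPM for the same counts. *Tlr6* also passed the filter through the Ox1RΔSERT mice, and no share over all genes was computed for this measure, so this is a description only.

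**Figure D3:**
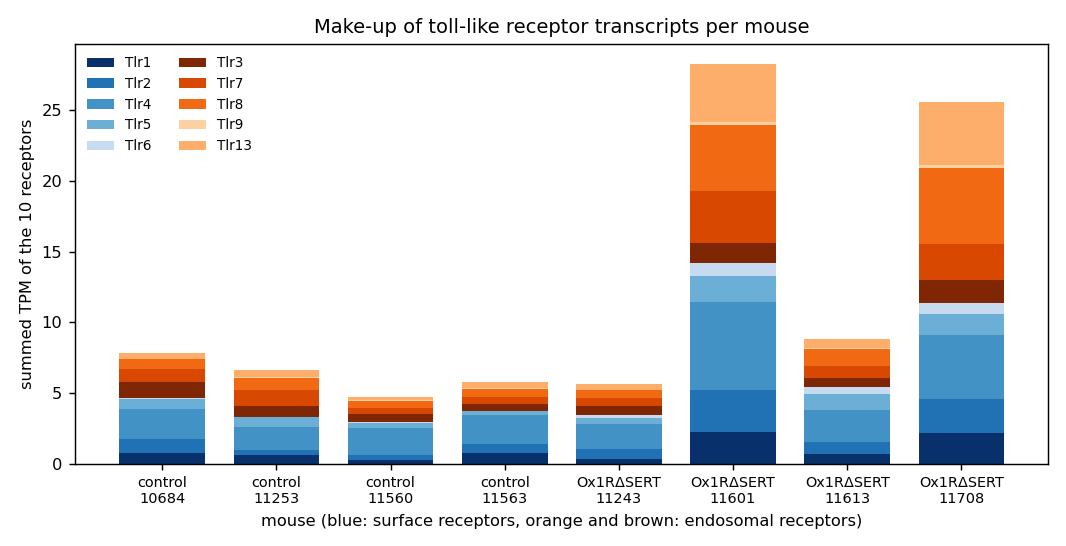
Summed TPM of the 10 receptors in each mouse, stacked by gene, with surface receptors in blue and endosomal receptors in orange and brown. The 4 control mice have sums between 4.68 and 7.84, and Ox1RΔSERT mice 11601 and 11708 have sums of 28.3 and 25.6, in which *Tlr8* and *Tlr13* take a larger part than in the control mice.

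Several cell types express these receptors. In a whole tissue a different number of cells of a type and a different amount of RNA per cell cannot be told apart. Brown adipocyte markers were present in all mice, with a summed level of 10893 to 11927 TPM in control mice and 9996 to 12704 TPM in Ox1RΔSERT mice, and none of the 8 was at 0. All 8 had a negative log2 fold change with a median of -0.28, and 2 were lower at an unadjusted p under 0.05 in edgeR, *Ucp1* (-0.54) and *Dio2* (-1.22), against 4.96% of all tested genes that were lower. Of 11 macrophage markers, 10 had a positive log2 fold change in edgeR. At an unadjusted p under 0.05 there, 9 were higher, against 10.2% of all tested genes, and 0 passed the adjusted threshold. The summed level of the 11 was 92.8 to 182 TPM in control mice and 131 to 919 TPM in Ox1RΔSERT mice. None of these markers was at 0 in any mouse, and their highest sums were in mice 11601 and 11708. Without these 2 mice 0 of the 11 had an unadjusted p under 0.05, against 1.66% of all genes tested then that were higher. The median log2 fold change of the 11 was then 0.07 in place of 1.18. Fibroblast markers had sums of 104 to 214 TPM and 163 to 1600 TPM, with none at 0. In edgeR 5 of 5 were higher at an unadjusted p under 0.05, against the same 10.2%, and 0 passed the adjusted threshold. Without the 2 mice 0 of 5 were at that unadjusted p, against the same 1.66%. Neutrophil markers had sums of 6.85 to 42.2 TPM and 19.5 to 87.6 TPM, with *Ly6g*, *Camp* and *Ngp* at 0 in at least 1 mouse. Dendritic cell markers had sums of at most 2.48 TPM in control mice and 2.73 to 4.28 TPM in Ox1RΔSERT mice, with *Siglech* and *Ccr9* at 0 in at least 1 mouse. The most abundant of them was *Zbtb46*, whose normalized values overlapped and whose log2 fold change in edgeR was 0.10. Of the 5 tested, 1 was higher at an unadjusted p under 0.05, against the same 10.2%, and 1 had a negative log2 fold change. The defining markers of B cells were at or near 0, with sums of at most 0.382 TPM. Those of T cells were low, with sums of 0.124 to 0.466 TPM in control mice and 0.227 to 1.18 TPM in Ox1RΔSERT mice. The T cell sums were highest in mice 11601 and 11708, at 1.18 and 0.702 TPM. Skeletal muscle markers had sums of 1.33 to 608 TPM and 6.22 to 1195 TPM, highest in control mouse 11253 and Ox1RΔSERT mouse 11708. Endothelial markers had sums of 51.0 to 59.9 TPM and 60.1 to 85.6 TPM without overlap, although 3 of the 5 had a negative log2 fold change in edgeR. These fold changes were -0.15 to 0.07, and in normalized values the groups overlapped in each of the 5. In fits on log2 TPM the median log2 fold change of all genes was 0.23 or 0.32, depending on the pseudocount. Sums of TPM are to be read relative to this shift, and the share of all genes without overlap in TPM was not computed. White adipocyte markers had sums of 15.6 to 44.3 TPM and 25.7 to 73.6 TPM, highest in mouse 11708, with *Hoxc9* at 0 in at least 1 mouse. The part of these cell types in the differences of the receptors was not tested.

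Set against the mean log2 normalized value of the 11 macrophage markers in the same mouse, the receptors differed in sign, and the groups overlapped in all but *Tlr8*. The marker mean was 3.30 to 4.27 in control mice and 3.79, 5.74, 4.11 and 5.53 in Ox1RΔSERT mice, a difference of 1.01 between the group means. The log2 difference of *Tlr7* from this mean was nearly constant, from -2.55 to -2.18 in control mice and from -2.52 to -2.23 in Ox1RΔSERT mice. Relative to the marker mean, *Tlr8* was higher in Ox1RΔSERT mice by 0.41 on the log2 scale, *Tlr13* by 0.57 and *Tlr6* by 0.75. *Tlr4*, *Tlr3* and *Tlr9* were lower relative to it, with differences of -0.56, -0.79 and -0.53, and *Tlr5* differed by -0.25, *Tlr1* by 0.15 and *Tlr2* by 0.03. For *Tlr8* the control mice were between -2.79 and -2.361 and the Ox1RΔSERT mice between -2.359 and -1.89, so that the groups all but touched. How many of all tested genes lack overlap in this relative measure was not computed, so the lack of overlap of *Tlr8* is a description only. Among the receptors with overlap, *Tlr3* had relative values of -2.53 to -1.55 in control mice and -3.39 to -2.04 in Ox1RΔSERT mice. The summed TPM of the 10 receptors was 3.65% to 5.46% of that of the macrophage markers in control mice and 3.08% to 4.81% in Ox1RΔSERT mice, with overlap. No test was made on these relative values.

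**Figure D4:**
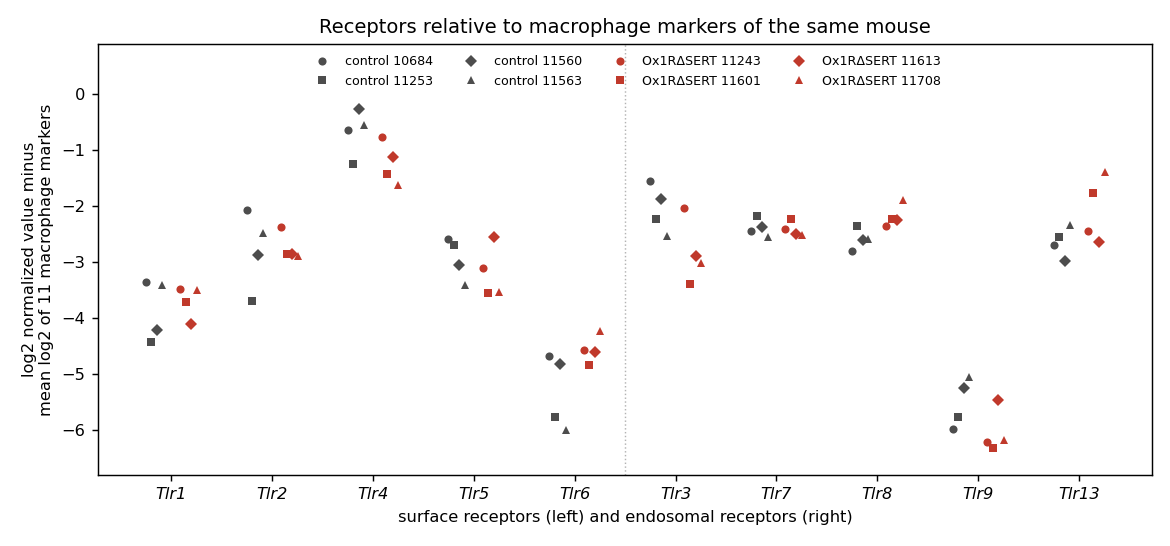
Log2 normalized value of each receptor minus the mean log2 normalized value of 11 macrophage markers in the same mouse, with control mice in grey and Ox1RΔSERT mice in red. *Tlr7* has nearly the same relative value in all 8 mice, whereas *Tlr13* is highest in mice 11708 and 11601, at -1.39 and -1.77, and *Tlr3* is lowest in mouse 11601, at -3.39.

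The course of each receptor over the 8 mice was compared with that of every other tested gene by the root mean square difference of centred log2 normalized values. Outside the receptors, the nearest gene to *Tlr8* was *Laptm5* (0.133), to *Tlr13* *Ly9* (0.157), to *Tlr7* *Hmmr* (0.108), to *Tlr4* *Atpif1* (0.0904) and to *Tlr6* *Tnfsf14* (0.196). For *Tlr1*, *Tlr2*, *Tlr3*, *Tlr5* and *Tlr9* they were *AI662270*, *Tll1*, *Serpinb9*, *Psmb8* and *Sirpa*, at 0.144 to 0.201. Among the receptors, *Tlr7* and *Tlr8* were nearest to each other at 0.290, as were *Tlr1* and *Tlr2* at 0.254 and *Tlr3* and *Tlr4* at 0.385. These are descriptions over 8 mice, in which mice 11601 and 11708 set much of the course.

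The genes that act with the receptors were followed in 81 genes of 7 lists, of which 70 were tested. In edgeR 0 of the 70 passed the adjusted threshold, and 24 had an unadjusted p under 0.05, all higher in Ox1RΔSERT mice, against 10.2% of all tested genes. DESeq2 called 11 of the 76 with an adjusted p, all higher, against 1.54% of all genes. Of the 70, 51 had a positive log2 fold change, with a median of 0.29. In 4 of the 70 the groups did not overlap, all higher in Ox1RΔSERT mice, against 2.69% of all tested genes. These were *Slc15a4*, *Btk*, *Nfkb2* and *Cxcl1*, which are named below because their p was among the lowest of their lists. The share of 10.2% also stands beside the counts of each list below. Without mice 11601 and 11708, 4 of 70 had an unadjusted p under 0.05 in edgeR, 3 higher and 1 lower, against 1.66% and 1.2% of all genes tested in that comparison. By list, those 3 were 1 trafficking gene, 1 transcription factor and 1 induced cytokine or enzyme, the lower gene was an inhibitor, and no co-receptor, adaptor or kinase was among them.

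Among 7 genes of co-receptors and ligand handling, 3 were higher at an unadjusted p under 0.05. *Cd14* encodes the co-receptor that passes lipopolysaccharide to TLR4, and its normalized values were 6.80, 4.85, 3.64 and 4.64 in control mice and 5.66, 20.4, 8.58 and 27.8 in Ox1RΔSERT mice. Its log2 fold change was 1.65 ± 0.48 (SE), and the adjusted p 0.316 in edgeR and 0.0292 in DESeq2, and only mouse 11243 lay within the control range. *Lbp*, the binding protein for lipopolysaccharide, differed by 1.55 on the log2 scale, with an adjusted p of 0.0337 in DESeq2. *Ly96*, which encodes MD-2, the partner that TLR4 needs to bind lipopolysaccharide, differed by -0.38, the lowest of this list.

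Of 8 genes for receptor folding and trafficking, 3 were higher at an unadjusted p under 0.05. *Unc93b1*, which the endosomal receptors depend on, had a log2 fold change of 1.02, with normalized values of 8.26 to 14.6 in control mice and 11.1 to 35.4 in Ox1RΔSERT mice. *Slc15a4*, an endolysosomal transporter needed for TLR7 and TLR9 signalling, differed by 0.40 without overlap between the groups, and *Rab7b*, which acts in endosomal traffic, by 1.57 with overlap. Neither was called by edgeR or DESeq2.

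Of the 6 adaptors 0 had an unadjusted p under 0.05. The lowest p were those of *Pik3ap1*, which links the receptors to phosphoinositide 3-kinase, with a log2 fold change of 1.02 and 3 Ox1RΔSERT mice above every control mouse, and of *Ticam2*, which joins TLR4 to TRIF, with 0.88. For *Myd88*, the adaptor shared by most of the receptors, the log2 fold change was 0.13, and for *Ticam1* it was -0.13. Of 18 kinases and ubiquitin ligases 4 were higher at an unadjusted p under 0.05, while 6 of the 18 had a positive and 12 a negative log2 fold change. *Btk*, a kinase of the receptor complexes, differed by 1.68 without overlap and *Ikbke*, a kinase upstream of IRF3, by 1.86 with overlap. The core kinases *Irak1* and *Irak4* differed by -0.18 and 0.08.

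Of 11 transcription factors 6 were higher at an unadjusted p under 0.05, against 10.2% of all tested genes, and all 11 had a positive log2 fold change. Without mice 11601 and 11708, 1 of the 11 was higher at that p and 9 were positive. *Nfkb2*, a subunit of NF-κB, differed by 0.66 without overlap and *Fos*, a part of AP-1, by 1.67 with overlap, and DESeq2 called both. Of 13 inhibitors 5 were higher at an unadjusted p under 0.05. *Il1rl1*, the receptor for interleukin-33, differed by 3.56, with 67.2 and 86.8 in mice 11601 and 11708 against 2.57 to 4.76 in the other 6 mice (normalized values). *Nfkbie*, an inhibitor of NF-κB, differed by 1.23. Of 18 induced cytokines and enzymes only 7 passed the filter, all with a positive log2 fold change, while *Tnf*, *Il6*, *Il10* and *Ifnb1* were among the 11 that did not. *Il1b* encodes an inflammatory cytokine, and its normalized values were 0.915, 0.507, 0.835 and 0.420 in control mice and 0.895, 4.52, 2.63 and 10.5 in Ox1RΔSERT mice, with overlap at mouse 11243 only. Its log2 fold change was 2.79 and its adjusted p in DESeq2 0.00366. *Cxcl1*, a chemokine for neutrophils, differed by 2.60 without overlap between the groups.

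**Figure D5:**
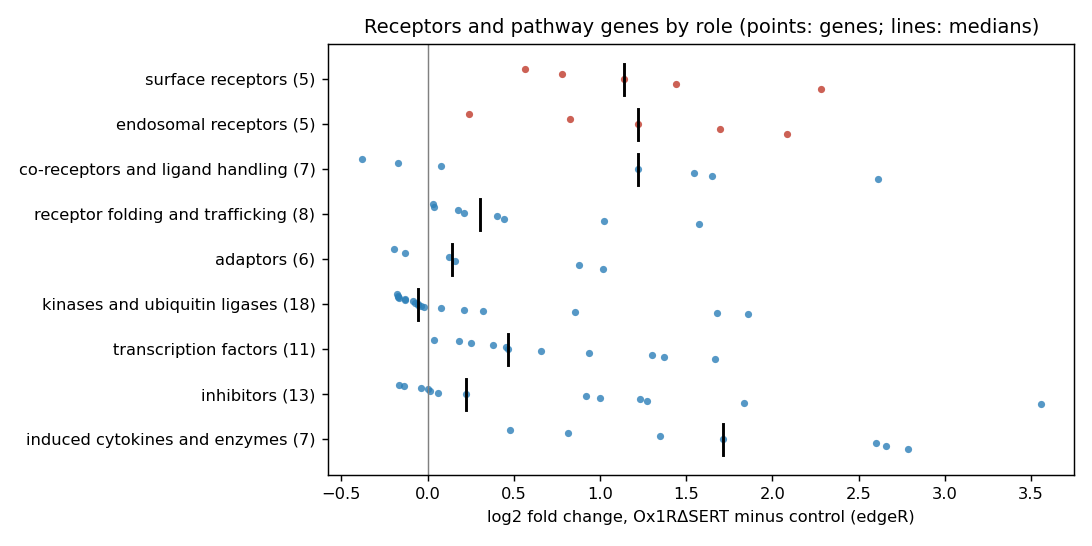
Log2 fold change (Ox1RΔSERT minus control, edgeR) of the receptors (red) and of tested pathway genes (blue) by role, with the number of tested genes in brackets and a line at each median. The 5 surface and 5 endosomal receptors have medians of 1.14 and 1.22, whereas adaptors and kinases have medians of 0.14 and -0.06. *Tlr6* and *Tlr9*, which passed the filter mainly through Ox1RΔSERT mice, are included. With at least 10 counts in every mouse, which removed these 2 genes, the receptor medians were 0.97 and 1.47.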

How the data were processed

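The poly-A selected RNA of BAT was made into stranded libraries by the authors. Quantification per gene used Salmon 0.14.1 within nf-core/rnaseq, and the submitters' processing notes also name STAR, DESeq2 1.26.0 and GRCm38.p6. The annotation release is not given in the sources used here. The deposited values are estimated counts per gene, not normalized, and TPM values, in which the authors took account of the length of transcripts and the library size. Symbols and positions came from GENCODE M21 (GRCm38), with a symbol for 44118 of 44674 identifiers.

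Estimated counts were rounded to whole numbers. All 8 libraries were compared, without covariates, with edgeR 4.0.16 in R 4.3.3 (filterByExpr, TMM scaling, glmQLFit and glmQLFTest), two-sided, with Benjamini-Hochberg adjustment over all tested genes. SEs were computed from the F statistic. Exact permutation tests used the 70 assignments of mice to groups. Alternatives were DESeq2 1.42.0, limma 3.58.1 (voom, and trend on log2 TPM), other scalings and filters, and mice left out. Scripts were tested on simulated data. Log2 values of single mice used a pseudocount of 0.1. Floors of 3 counts cover counting error only. The libraries with the most similar counts still differed by a chi-square of 18.5 per degree of freedom, so 8 mice were counted.

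The named genes were all 10 receptors, *Tlr11* and *Tlr12*, the 2 genes with the lowest p of each pathway list, the nearest gene by pattern, and marker genes. *Ucp1*, *Dio2*, *Zbtb46*, *Ly96*, *Unc93b1*, *Myd88*, *Ticam1*, *Irak1*, *Irak4* and the cytokines that did not pass the filter were named after their values were seen. The receptors and lists were chosen with earlier results of these data known.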

Additional observations from a re-analysis of the deposited data

How the results depend on the processing

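The limits lie in the number of mice and in mice 11601 and 11708. In edgeR 0 genes and 0 receptors were called under every scaling, filter and omission of a mouse tried, as with limma voom and limma-trend on TPM, and also at an adjusted p under 0.1. DESeq2 called 265 genes and 3 receptors. With 1 mouse left out, DESeq2 called 373 genes and 1 receptor (*Tlr6*) without control mouse 10684, 247 and 2 (*Tlr8* and *Tlr13*) without 11253, 17 and 0 without 11560, and 49 and 0 without 11563. It called 1516 and 5 (*Tlr1*, *Tlr6*, *Tlr7*, *Tlr8* and *Tlr13*) without Ox1RΔSERT mouse 11243, 936 and the same 5 without 11613, 17 and 0 without 11601, and 19 and 0 without 11708. With 1 mouse left out, edgeR's median log2 fold change of the receptors was 0.78 to 1.40, that of the surface receptors 0.82 to 1.48 and that of the endosomal receptors 0.75 to 1.48.

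Leaving out both 11601 and 11708 was chosen after the data had been seen. The medians were then 0.17, 0.23 and 0.045 in edgeR and 0.17, 0.23 and 0.045 in DESeq2, which called 8 genes, and 3 receptors turned negative: *Tlr4* (-0.11), *Tlr3* (-0.30) and *Tlr9* (-0.14) in both tools. Under the other settings the 10 receptors kept a positive log2 fold change where they were tested. *Tlr6* and *Tlr9* were not tested with at least 10 counts in every mouse.

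Scaling by library size alone and the use of TPM moved the median log2 fold change of all genes to 0.22 (library size), 0.23 (TPM + 1) and 0.32 (TPM + 0.1), while that of the receptors was 1.45, 0.57 and 1.02, so those values are to be read relative to these shifts. Left out of the sums, *Tlr4* lowered the mean surface to endosomal ratio to 0.697 in control and 0.682 in Ox1RΔSERT mice, whereas leaving out *Tlr3*, *Tlr7* or *Tlr8* raised it to 2.11, 2.08 and 2.07 in control mice and to 1.53, 1.63 and 1.84 in Ox1RΔSERT mice. No paired analysis was possible because the labels give no replicate numbers that pair mice across the groups.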
